A study of Mus musculus with 24 samples.

Results

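The adult hemoglobin genes Hba-a1, Hba-a2, Hbb-bs and Hbb-bt and the erythroid heme synthesis gene Alas2 were followed in the hippocampus of Aged mice. They are 5 of the 49568 gene symbols in the count files, and all 5 passed the filter on low counts that left 20187 genes to be tested. The genes were chosen by name because they were higher with enrichment in both genotypes in an earlier look at these libraries. Their enrichment effects are therefore a description, and although calls in those contrasts are listed, nothing is read from them. Tests of these genes were kept to the differences between genotypes and to the relations of Hbb-bs with other measures. Poly(A) RNA was sequenced from individual hippocampi of male C57Bl/6J mice aged 21 to 23 months. Standard-housed mice had stayed in standard cages, while enriched mice had been moved at 18 months of age, so the move itself is part of the difference in housing. Wild-type standard-housed (WTSH) and wild-type enriched (WTEE) mice were compared with MSK1 kinase-dead mice in the same housing (KDSH and KDEE). MSK1 KD mice are homozygous for a knock-in point mutation that inactivates the kinase MSK1, and the genotypes were bred as separate homozygous lines, so the genotype and the line cannot be told apart. Enriched mice lived in large cages with a running wheel, tubes and toys and with more cage mates, so these components cannot be told apart either. There were 6 libraries per group, of which the study left out WTSH 4, WTSH 7 and KDSH 6, so that 4 WTSH, 6 WTEE, 5 KDSH and 6 KDEE libraries remained.

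Hemoglobin carries oxygen and is built from 2 alpha and 2 beta chains, each of which holds a heme group. The chains are made in bone marrow erythroblasts, and mammalian red cells lose their nucleus but, while young, as reticulocytes, still carry globin and Alas2 mRNA into the circulation. A piece of brain holds blood in its vessels unless they are rinsed, and lower levels of globin mRNA have also been described in some neurons and glia. In a whole hippocampus the number of blood cells and the RNA in each cell cannot be told apart, and perfusion is not mentioned in the methods of the study. Hba-a1 (ENSMUSG00000069919, chr11:32283511-32284465, plus strand, GRCm38) and Hba-a2 (ENSMUSG00000069917, chr11:32296489-32297298, plus strand) encode the adult alpha chain. Hbb-bs (ENSMUSG00000052305, chr7:103826534-103828096, minus strand) and Hbb-bt (ENSMUSG00000073940, chr7:103812524-103813996, minus strand) encode the adult beta chains of C57Bl/6 mice. Alas2 (ENSMUSG00000025270, chrX:150547375-150570638, plus strand) encodes the aminolevulinate synthase of erythroid cells, which opens heme synthesis. The globin pairs are recent copies. Their longest open reading frames were identical at 428 of 429 bases for the alpha genes and at 443 of 444 bases for the beta genes, and 86.9% of the 50-base words of the Hba-a2 transcript also occurred in Hba-a1 (58.3% of those of Hbb-bt in Hbb-bs). Since only uniquely aligned reads were counted, the split within a pair and the level of each copy are uncertain, and sums over the 4 genes leave out reads that fit both copies. Exons of Alas2 overlap those of Apex2 and Mir3620 in the annotation, and the globin exons overlap those of no other gene.

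The 250 bases before the RefSeq start (GRCm38.p6) are shown for 4 of the genes because the genes moved together. Capitals mark matches, on either strand, to GATAA (the core bound by GATA factors), CACCC (the box bound by KLF factors), CCAAT and TATAA. The window of Hba-a1 shares an unbroken run of 247 bases with that of Hba-a2 and is not shown. The windows lie at chr11:32296242-32296491, chr7:103827929-103828178, chr7:103813924-103814173 and chrX:150547167-150547416.
Hba-a2: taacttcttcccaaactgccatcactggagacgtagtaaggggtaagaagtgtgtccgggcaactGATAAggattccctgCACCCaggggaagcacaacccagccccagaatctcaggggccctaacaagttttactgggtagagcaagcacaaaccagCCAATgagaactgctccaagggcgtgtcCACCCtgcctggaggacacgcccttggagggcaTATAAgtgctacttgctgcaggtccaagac
Hbb-bs: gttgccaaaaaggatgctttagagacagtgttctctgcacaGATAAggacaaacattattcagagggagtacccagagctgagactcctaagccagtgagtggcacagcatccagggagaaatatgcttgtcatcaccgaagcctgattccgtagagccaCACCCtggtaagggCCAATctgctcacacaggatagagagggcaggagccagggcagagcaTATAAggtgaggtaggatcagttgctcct
Hbb-bt: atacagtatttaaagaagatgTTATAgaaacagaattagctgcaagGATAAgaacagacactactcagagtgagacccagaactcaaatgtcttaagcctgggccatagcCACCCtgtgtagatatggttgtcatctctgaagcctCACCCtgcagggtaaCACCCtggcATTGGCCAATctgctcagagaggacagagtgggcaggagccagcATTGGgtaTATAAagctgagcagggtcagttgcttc
Alas2: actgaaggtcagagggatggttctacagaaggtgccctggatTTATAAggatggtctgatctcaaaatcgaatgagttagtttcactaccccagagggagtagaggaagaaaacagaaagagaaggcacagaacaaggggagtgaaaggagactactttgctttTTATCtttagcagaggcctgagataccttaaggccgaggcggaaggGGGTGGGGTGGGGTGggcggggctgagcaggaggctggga
All 4 globin windows held all 4 motifs, and the Alas2 window held 3 of them, without CCAAT. Of all 32851 windows of this length, 22.6% held GATAA, 52.0% CACCC, 33.9% CCAAT and 22.8% TATAA, and 0.968% held all 4. Matches on opposite strands can adjoin, as those of CCAAT do in Hbb-bt, or overlap, as those of TATAA do in Alas2, and these matches are letters in a window, not binding sites that were measured.

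Expression is given in CPM (counts of a gene scaled to a common library size, after TMM normalization). Per kilobase of exon, the mean level over the 21 libraries was 66.3 for Hbb-bs, 50.5 for Hba-a1, 24.5 for Hba-a2, 13.9 for Hbb-bt and 1.59 for Alas2, in CPM per kb. The 4 globin genes together took 0.00365% to 0.0389% of all gene counts. They stood on 1790 to 16624 counts a library, and Alas2 on 76 to 519. Counting error was small against the spread between mice in the enriched groups. It was not small for every gene within standard-housed groups. Hbb-bt in WTSH had 225 to 262 counts a library, and its spread (SD 0.318 on a mean of 5.01 CPM) was about that of counting error. WTEE 10 stood apart in its makeup, with hippocampal neuron markers summing to 4387 CPM against 6309 to 7611 in the other 20 libraries, and with the highest platelet (22.4 CPM) and mural cell (252 CPM) sums. Values without it are given for some of the results on which it bears. Within the platelet sum Gp1bb alone averaged 7.27 CPM over the 21 libraries.

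The beta-globin gene Hbb-bs, which had the highest level per kilobase of the 5 genes, is described first. In WTSH mice it was at 27.5 CPM in library 2, 27.01 in 5, 25.1 in 19 and 33.9 in 23. KDSH mice were as low, with 26.4 in library 1, 19.5 in 3, 33.1 in 8, 17.1 in 18 and 19.9 in 24. The 9 standard-housed libraries thus stayed within a narrow band. In WTEE mice Hbb-bs was at 105 CPM in library 10, 24.3 in 11, 42.2 in 13, 120.2 in 16, 23.9 in 17 and 164 in 21. In KDEE mice it was at 96.2 in library 9, 98.0 in 12, 54.6 in 14, 32.4 in 15, 32.1 in 20 and 46.6 in 22. Enriched mice were therefore not uniformly higher. WTEE 11 and 17 lay below every WTSH library, KDEE 15 and 20 lay between the highest 2 KDSH libraries, and WTEE 10, 16 and 21 and KDEE 9 and 12 lay far above all standard-housed mice. The mean was 28.4 ± 3.82 CPM in the 4 WTSH libraries (SD) and 79.99 ± 58.4 in the 6 WTEE libraries. It was 23.2 ± 6.52 in the 5 KDSH and 59.99 ± 30.01 in the 6 KDEE libraries. In order of the means the groups ran WTEE, KDEE, WTSH and KDSH, and the ranges of neighbours in this order overlapped.

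**Figure D1:**
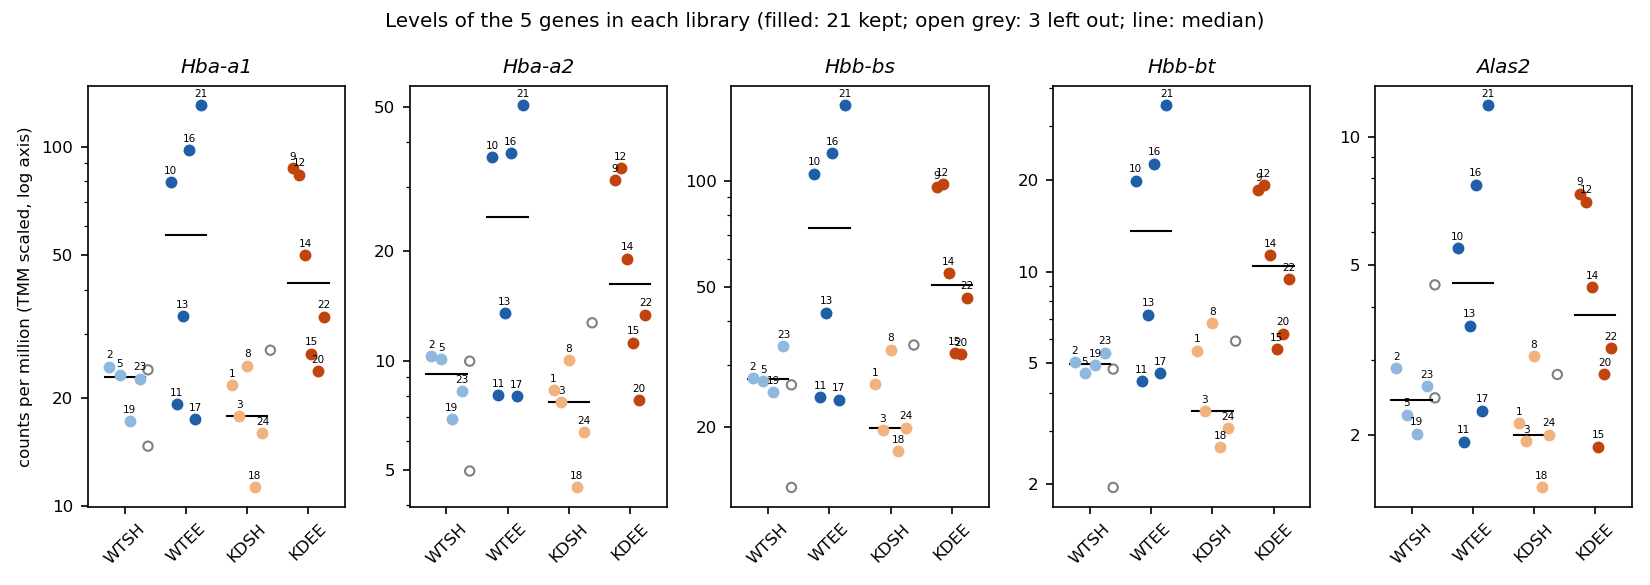
Level of each gene in every library, in CPM on a log axis, with kept libraries as filled points carrying their library number, left-out libraries as open grey points and the median of kept libraries as a line. The enriched groups reach from the standard-housed level (WTEE 11 and 17) to several times above it (WTEE 21, KDEE 9 and 12).

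The alpha-globin gene Hba-a1 followed nearly the same order of mice. It was at 17.2 to 24.4 CPM in WTSH and at 11.3 to 24.6 in KDSH, against 17.4 to 130.5 CPM with a median of 56.7 in WTEE and 23.7 to 87.2 with a median of 41.7 in KDEE. Hba-a2 was at 6.89 to 10.3 CPM in WTSH, 4.48 to 10.04 in KDSH, 7.99 to 50.5 (median 24.9) in WTEE and 7.77 to 33.9 (median 16.2) in KDEE. Hbb-bt, the other adult beta gene, was at 4.65 to 5.42 CPM in WTSH, 2.65 to 6.76 in KDSH, 4.38 to 35.2 (median 13.6) in WTEE and 5.57 to 19.2 (median 10.4) in KDEE. For each globin gene the highest library was WTEE 21 and the lowest kept library KDSH 18. Relative spread was wider with enrichment in each gene, and for Hba-a1 the highest library exceeded the lowest by 7.49 times in WTEE and 3.69 times in KDEE, against 1.42 times in WTSH and 2.18 times in KDSH.

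Alas2 was far less abundant but ranked the mice in nearly the same way. In WTSH mice it was at 2.87 CPM in library 2, 2.23 in 5, 2.01 in 19 and 2.60 in 23. In KDSH mice it was at 2.13 in library 1, 1.94 in 3, 3.06 in 8, 1.51 in 18 and 2.004 in 24. In WTEE mice it was at 5.49 in library 10, 1.93 in 11, 3.61 in 13, 7.74 in 16, 2.28 in 17 and 11.9 in 21. In KDEE mice it was at 7.36 in library 9, 7.05 in 12, 4.45 in 14, 1.88 in 15, 2.77 in 20 and 3.19 in 22. Again the same 5 enriched mice stood highest, and WTEE 11 and 17 and KDEE 15 and 20 stayed in the range of standard-housed mice.

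Housing groups were compared gene by gene. In WT mice the fitted log2 fold change (WTEE minus WTSH) was 1.49 ± 0.474 (SE) for Hbb-bs, 1.53 ± 0.500 for Hba-a1, 1.52 ± 0.493 for Hba-a2, 1.64 ± 0.518 for Hbb-bt and 1.17 ± 0.439 for Alas2. In MSK1 KD mice (KDEE minus KDSH) it was 1.37 ± 0.438 for Hbb-bs and 1.48 ± 0.464 for Hba-a1, and it was 1.40 ± 0.457 for Hba-a2, 1.45 ± 0.480 for Hbb-bt and 1.07 ± 0.412 for Alas2. Averaged over the genotypes, the means were 2.17 times (Alas2) to 2.92 times (Hbb-bt) higher with enrichment. All 5 values exceeded 1 on the log2 scale in WT, MSK1 KD and averaged contrasts, as did 1.68%, 1.16% and 0.664% of all genes tested. None of the 5 genes was called in WT or MSK1 KD mice, where 0% of the 20187 genes tested were called, or in the averaged contrast, where 0.00495% were called, which is Ighm alone. Calls required an adjusted p under 0.05 (Benjamini-Hochberg, edgeR's quasi-likelihood test) together with a log2 fold change beyond 0.38, and 1322, 2345 and 3816 genes had an unadjusted p under 0.05 in these 3 contrasts. With the Wald test of DESeq2 the averaged contrast called 4 of the 5 genes, where 0.233% of genes with an adjusted p were called. No gene separated the housing groups fully. Above every standard-housed library lay 9 of the 12 enriched libraries for Hba-a1 and Hba-a2 and 8 of 12 for Hbb-bs, Hbb-bt and Alas2, and 1.65% of all genes tested had at least 8 of 12. These calls and counts come from the contrast by which the genes were chosen, and nothing is read from them.

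Enriched and standard-housed mice differed in their numbers, since 1 to 8 were all standard-housed and 9 to 17 all enriched, and only 18 to 24 held both. What the numbers stand for is not given in the labels. Among libraries 18 to 24 the WT effect was larger, at 2.49 for Hbb-bs and 2.37 for Alas2 on the log2 scale, but rested on the single WTEE library 21, and the MSK1 KD effect was 1.09 for Hbb-bs and 0.767 for Alas2. Among libraries 1 to 17 the effect on Hbb-bs was 1.21 in WT and 1.42 in MSK1 KD mice. Without WTEE 21 the WT effect on Hbb-bs was 1.15, and without WTEE 10 it was 1.40.

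Genotype was then examined. The genes were chosen on enrichment within each genotype and not on differences between genotypes, but the interaction is the difference between those same enrichment effects, so the choice favours a small interaction and its values are a description. In standard housing the log2 fold change of MSK1 KD against WT (KDSH minus WTSH) was -0.29 for Hbb-bs and -0.26 for Hba-a1, with standard errors of 0.473 and 0.500. It was -0.27 for Hba-a2, -0.22 for Hbb-bt and -0.19 for Alas2, and the adjusted p (edgeR) was 0.99995 for all 5. In enriched housing (KDEE minus WTEE) the values lay between -0.41 (Hbb-bs) and -0.29 (Alas2), with an adjusted p of 0.957 for all 5 (edgeR). The interaction, which asks whether enrichment acted differently in MSK1 KD than in WT mice, was -0.12 ± 0.622 for Hbb-bs, -0.05 ± 0.656 for Hba-a1 and -0.10 ± 0.590 for Alas2 on the log2 scale. None of these contrasts called any gene of the 20187 tested (0% in each), although 202, 1007 and 659 genes had an unadjusted p under 0.05, and DESeq2 called 0, 118 and 20 genes, none of them among the 5. The 95% intervals were wide. For Hbb-bs, the effect of enrichment in MSK1 KD mice could have been from 0.375 to 2.25 times the effect in WT mice. The sign of the genotype difference in enriched mice and of the interaction turned positive among libraries 1 to 17 (Hbb-bs 0.16 and 0.21) and the interaction turned positive without WTEE 21 (Hbb-bs 0.22), so these libraries give no direction for genotype. Among libraries 18 to 24 the difference in enriched mice was -2.20 for Hba-a1, -2.07 for Hbb-bs and -2.18 for Hbb-bt (adjusted p 0.0487 for each, edgeR), and -2.27 for Hba-a2 and -1.998 for Alas2, which did not pass (adjusted p 0.114 and 0.111, edgeR). In that fit WTEE 21 was the only WTEE library and was assumed to vary like the others.

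The 5 genes varied together. Over the 21 libraries, as deviations from group means on the log2 scale, Pearson's r between pairs of the genes ran from 0.938 (Hba-a2 with Alas2) to 0.991 (Hba-a1 with Hba-a2), given as a description because all values of a library share its RNA and its scaling. The ratio of alpha to beta globin counts was 0.925 ± 0.152 in WTSH, 0.930 ± 0.0261 in WTEE, 0.937 ± 0.117 in KDSH and 0.955 ± 0.1003 in KDEE (SD). Across libraries it varied 1.41 times from lowest to highest, while the summed globin level varied 10.7 times. Hba-a1 exceeded Hba-a2 by 2.18 to 3.05 times and Hbb-bs exceeded Hbb-bt by 4.67 to 6.51 times in counts. These are ratios of uniquely aligned reads and not of transcript levels. Of the 50-base words, 67.5% of those of Hba-a1 and 86.9% of those of Hba-a2 occurred in the other copy. For Hbb-bs and Hbb-bt the shares were 65.8% and 58.3%. WTEE 21, with 380.6 CPM of globin, and WTEE 17, with 53.9, had alpha to beta ratios of 0.906 and 0.891. The ratio was lower in the later numbers. It was 0.868 to 1.11 with a median of 0.976 in the 14 kept libraries numbered 1 to 17, and 0.785 to 0.970 with a median of 0.819 in the 7 numbered 18 to 24, both of standard-housed mice (medians 1.05 and 0.7995) and of enriched mice (0.957 and 0.838).

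Alas2 was also set against the globins. For every 1000 globin counts there were 37.9 ± 3.49 Alas2 counts in WTSH (SD, n = 4) and 40.4 ± 3.77 in KDSH (n = 5), against 32.7 ± 6.91 in WTEE (n = 6) and 31.7 ± 4.84 in KDEE (n = 6). The groups overlapped, with 34.4 to 44.3 in standard-housed and 22.8 to 42.2 in enriched libraries, and the lowest values were those of WTEE 10 (22.8) and KDEE 15 (24.8). Without WTEE 10 the WTEE mean was 34.6. A straight line of Alas2 on Hbb-bs levels over the 21 libraries met the Alas2 axis at 0.557 CPM, and at 0.485 to 0.742 when each library was left out in turn, where the lowest Alas2 level was 1.51 CPM. The corresponding lines of Hba-a1, Hba-a2 and Hbb-bt met it at -0.762, 0.0245 and -0.725 CPM.

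**Figure D2:**
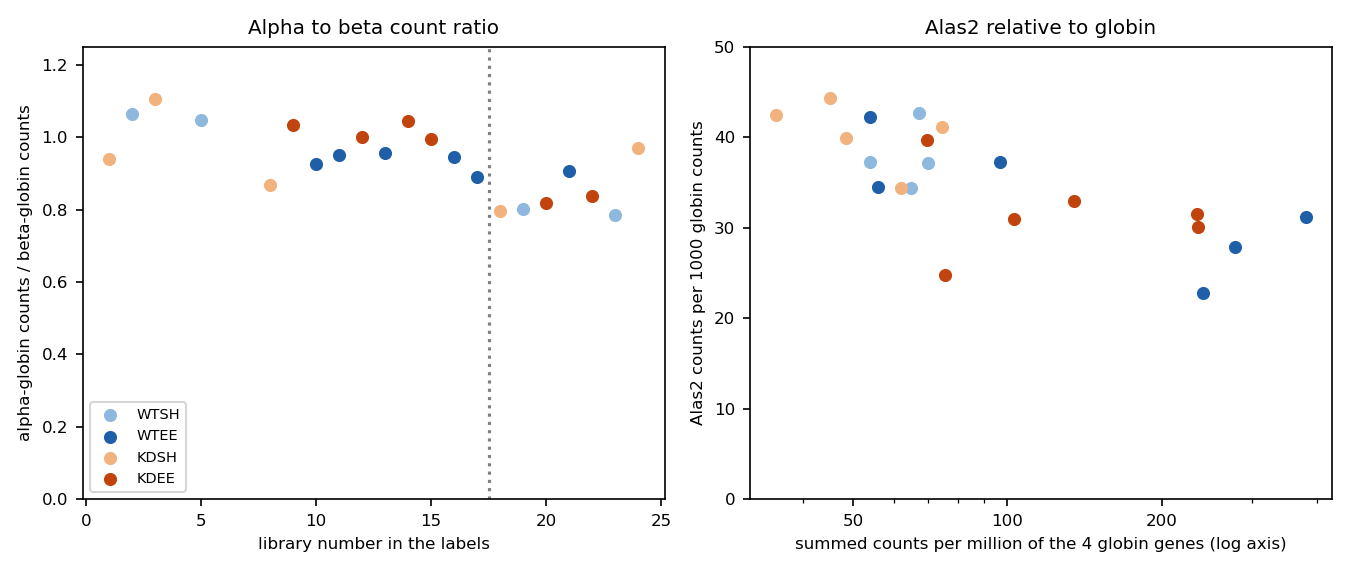
Left, alpha-globin counts divided by beta-globin counts against library number, with a dotted line between 17 and 18; right, Alas2 counts per 1000 globin counts against summed globin level in CPM (log axis). Each point is 1 of the 21 kept libraries, coloured by group; the ratio on the left is lower for most libraries numbered 18 to 24, and Alas2 per globin is 22.8 to 31.5 in the 5 libraries with the most globin.

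Other genes of red cells were then examined, from lists chosen with earlier results known. Of 22 genes listed as restricted to erythroid cells, 21 were in the files and 7 passed the filter, none was called in either direction (0.00495% of all genes tested) and the median averaged log2 fold change was 0.02, beside 0.01 over all genes tested. The sum of this list is mostly Tmcc2 and Tspan33, at 242 and 37.4 CPM, far above the levels of red cell membrane genes, and it lay at 254 to 324 CPM in all groups. Slc4a1, the band 3 anion exchanger of the red cell membrane, was the tested erythroid gene with the largest fold change, at 0.72 ± 0.454 (adjusted p 0.363, edgeR). The log2 fold change of Slc4a1 was 1.11 in WT and 0.33 in MSK1 KD mice. It was at 0.0565 to 0.265 CPM (median 0.0830) in WTSH and 0.0978 to 0.326 (median 0.169) in KDSH. In WTEE it was at 0.0712 to 0.595 (median 0.188) and in KDEE at 0.0820 to 0.563 (median 0.118), on 3 to 26 counts a library. The median was thus higher with enrichment in WT and lower in MSK1 KD mice. Epor, the erythropoietin receptor, had a value of 0.12 ± 0.0835 (adjusted p 0.401, edgeR) on 130 to 429 counts a library. The highest 4 libraries for Slc4a1, which were WTEE 21, KDEE 12, WTEE 16 and KDEE 9, were 4 of the highest 5 for Hbb-bs. The 14 erythroid genes under the filter together summed to 0.395 to 0.604 CPM in WTSH, 0.464 to 0.717 in KDSH, 0.536 to 1.08 in WTEE and 0.491 to 1.03 in KDEE. Their highest libraries were again WTEE 21 (1.08 CPM, 47 counts) and KDEE 12 (1.03 CPM, 42 counts). Among erythroid regulators, Gata1 had 0 to 3 counts, Gfi1b 0 to 2 and Nfe2 0 to 9 counts a library. Klf1, with a log2 fold change of -0.01 ± 0.185, had 6 to 23, a range within that of Slc4a1. Tal1, with a log2 fold change of -0.12 ± 0.0985, had 61 to 128. Of the embryonic globins, Hbb-bh1 had no count in any of the 21 libraries, where 3 counts a library, the most that a count of 0 allows, would be 0.0421 to 0.108 CPM. Hbb-y had 0 to 3 counts and Hba-x 0 to 1. These limits cover counting error only, since read pairs without molecular identifiers are not molecules.

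Heme synthesis has other genes besides Alas2. Alas1, the aminolevulinate synthase of all tissues, was at 50.2 to 74.1 CPM over the 21 libraries with an averaged log2 fold change of 0.10 ± 0.0588, and its r with Hbb-bs within groups was 0.103. Of the 10 genes, which include Fech, the ferrochelatase that inserts iron into heme, 7 had values above 0 with a median of 0.07, and none was called. The globins of other tissues were measured too. Cygb, cytoglobin, had a log2 fold change of 0.02 ± 0.0763, Ngb, neuroglobin, 0.09 ± 0.151, Mb, myoglobin, 0.14 ± 0.174 and Hbq1a, a theta globin, -0.29 ± 0.188, and none was called. The 7 listed genes that clear heme and hemoglobin all had values above 0 (51.9% of all genes tested had), with a median of 0.22 and none called. Among them were Hmox2, the constitutive heme oxygenase, at 0.05 ± 0.0293, Hmox1, the inducible one, at 0.22 ± 0.0762 (adjusted p 0.211, edgeR), Blvrb, biliverdin reductase B, at 0.25 ± 0.104, Hpx, hemopexin, at 0.51 ± 0.178, and Hp, haptoglobin, at 0.45 ± 0.253. Bpgm, which makes the 2,3-bisphosphoglycerate of red cells, had a value of 0.20 ± 0.0495 (adjusted p 0.179, edgeR) but an r of 0.054 with Hbb-bs. Of 25 erythroid genes that brain cells also use, 17 had values above 0 and none was called.

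**Figure D3:**
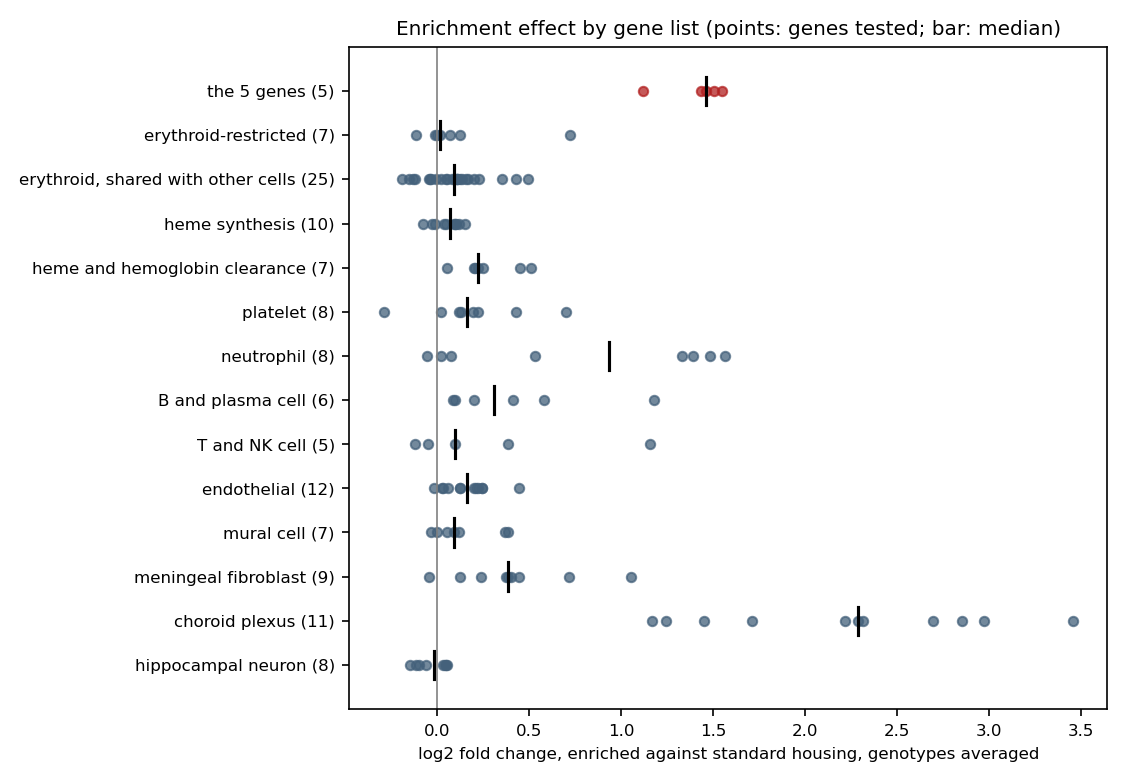
Log2 fold change of enriched against standard housing, averaged over the genotypes, for the 5 genes (red) and the genes tested in each list (blue), with list medians as black bars and numbers of genes in parentheses. The 5 genes lie between 1.12 and 1.55. The 7 erythroid-restricted genes tested center on 0.02, with Slc4a1 highest at 0.72, and erythroid genes under the low-count filter are not shown. The neutrophil and choroid plexus lists reach as high as the 5 genes or higher with no member called.

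The genes whose levels followed Hbb-bs most closely, over 20182 genes outside the 5, were ranked by r of deviations from group means, as a description. Only 5 genes exceeded 0.7. They were Apol11b (0.828), an apolipoprotein L family member, Slc4a1 (0.806), Pdia5 (0.780), a protein disulfide isomerase, Ube2l6 (0.775), an enzyme of ubiquitin and ISG15 conjugation, and Isg20 (0.722), an interferon-induced exonuclease. The same 5 ranked highest for Alas2, with Apol11b at 0.899 and Slc4a1 at 0.840. Of them, Slc4a1 is in the erythroid-restricted list, and Ube2l6 and Isg20 are in the list of erythroid genes that brain cells also use. Apol11b had 0 to 22 counts a library and none in 6 of the 21. Ube2l6 was at 3.66 to 5.12 CPM in WTSH and 4.04 to 6.08 in KDSH, against 4.06 to 9.42 in WTEE and 4.55 to 7.20 in KDEE, and its averaged log2 fold change was 0.35 ± 0.138 (adjusted p 0.231, edgeR). Isg20 was highest in WTEE 21, at 1.65 CPM, and had a value of 0.49 ± 0.177 (adjusted p 0.215, edgeR). Pdia5 followed Hbb-bs only within groups, since its averaged value was -0.28 ± 0.1001 and its r over all libraries, group means kept, was 0.108. The remaining genes of the Hbb-bs ranking, Hltf, Ddx31, Kif23, Fat2 and Lama1, had r of 0.657 to 0.699 and averaged fold changes between -0.11 and 0.04. The Alas2 ranking added Nlrp1a, Cxcl12, Itga10 and Brd7.

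**Figure D4:**
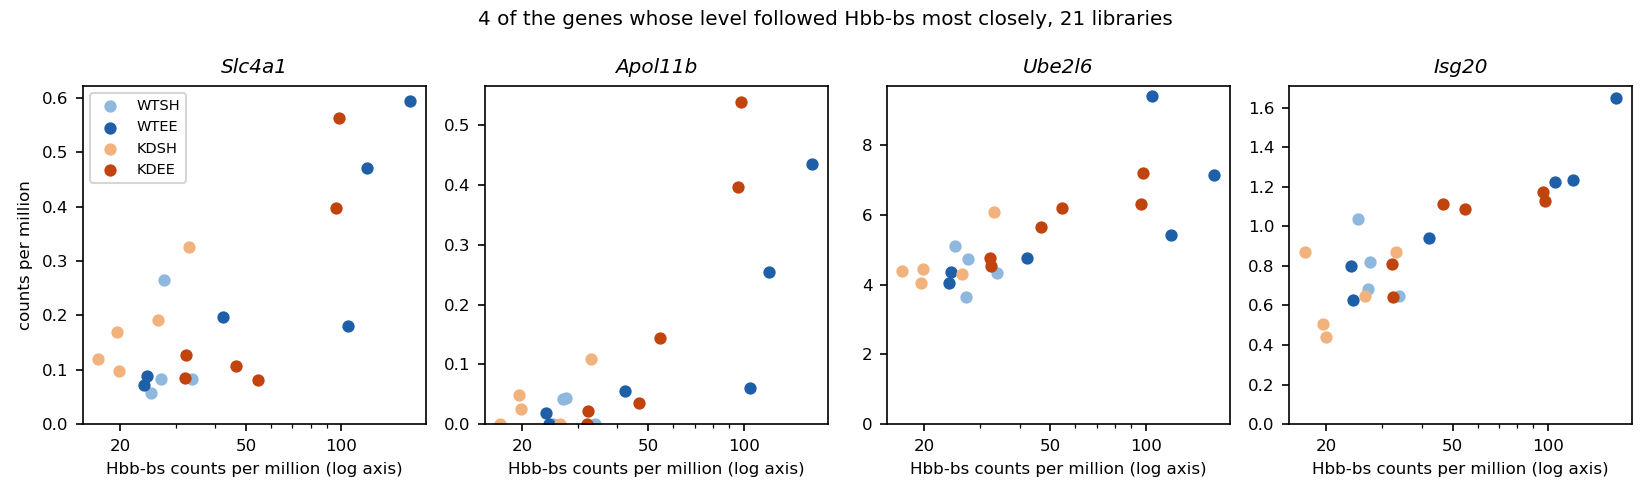
Level of Slc4a1, Apol11b, Ube2l6 and Isg20 (CPM) against Hbb-bs (CPM, log axis) in the 21 kept libraries, coloured by group. The libraries with the most Hbb-bs, such as WTEE 21, are among the highest for each gene; WTEE 10 is low for Slc4a1 (0.180) and Apol11b (0.0601) and highest for Ube2l6 (9.42).

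Other blood cells and the vessels were measured beside the globins, since either could move with them. Neutrophil genes had a median averaged log2 fold change of 0.93 over 8 tested of 14 listed, with none called. Among them were Lcn2, lipocalin 2, at 1.57 ± 0.531 and S100a8, a calgranulin, at 1.48 ± 0.536 (adjusted p 0.208 and 0.215, edgeR). High neutrophil values were found in mice with much and with little globin. WTEE 10, one of the 5 libraries with the most globin, had the most Lcn2 (9.06 CPM, 452 counts), and KDEE 12, another of them, had the most S100a8 among KDEE libraries (0.612 CPM). WTEE 21, which had the most globin, had no S100a8 count, and WTEE 11, at the standard-housed level of globin, had the most S100a8 (1.36 CPM, 76 counts). The list summed to 15.5 CPM in WTEE 21, 22.5 in WTEE 10 and 25.1 in WTEE 11, with 13.4 to 14.6 in WTSH and 11.1 to 19.4 in KDSH. Within this sum Csf3r alone averaged 11.3 CPM over the 21 libraries, with a log2 fold change of 0.02 ± 0.0768. Ly6g, which defines neutrophils, had 0 to 2 counts. Ighm, the immunoglobulin mu heavy chain of B cells, was called higher with enrichment (0.58 ± 0.0811, adjusted p 0.00990, edgeR). It was above every standard-housed library in all 12 enriched ones, at 24.5 to 38.4 CPM against 16.4 to 23.4. Within 1 genotype, 0.481% of all genes tested in WT and 0.907% in MSK1 KD mice had every enriched library above every standard-housed one. The share over both genotypes together was not counted. No gene, and so not Ighm, was called without WTSH 5, without WTSH 19 or with the structural RNA share as a covariate (0 calls in each). Ighm was highest in WTEE 17 (38.4 CPM), which was at the standard-housed level of globin, and its r with Hbb-bs was 0.059. Platelet genes had a median of 0.16 over 8 tested of 12 listed, with none called, and Pf4, platelet factor 4, had a value of 0.43 ± 0.346. Ccr2, a monocyte chemokine receptor, had a value of 0.68 ± 0.377 and the 3 monocyte genes tested of 6 a median of 0.68, while the 5 T and NK cell genes tested of 10 had a median of 0.10, with none called in either list.

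Endothelial genes had values above 0 in 11 of 12 and a median of 0.16, with none called. Vwf, von Willebrand factor, had the largest, 0.44 ± 0.172 (adjusted p 0.231, edgeR), and Flt1, Cldn5 and Itm2a were at -0.02, 0.21 and 0.22. The list summed to 254 to 295 CPM in WTSH, 234 to 298 in KDSH, 264 to 381 in WTEE and 245 to 376 in KDEE. The 5 libraries with the most globin were all above every standard-housed library for this list, at 381 CPM in WTEE 10, 376 in KDEE 12, 322 in KDEE 9, 304 in WTEE 16 and 299 in WTEE 21. So were WTEE 11 (303 CPM) and KDEE 15 (305 CPM), which had little globin, and WTEE 13 and KDEE 14. Mural cell genes had a median of 0.09. Choroid plexus and meningeal genes, which mark tissue next to the hippocampus, had medians of 2.29 and 0.39. The choroid plexus median was 0.53 in WT and 3.86 in MSK1 KD mice. Ttr, transthyretin, of the choroid plexus, ranged from 4.84 to 9046 CPM. The choroid plexus list summed to 9977 CPM in KDEE 12, 6112 in WTEE 13, 5388 in WTEE 10 and 2747 in KDEE 14. It also summed to 4523 CPM in the standard-housed WTSH 19, which had 54.1 CPM of globin. The sum was 59.8 in WTEE 21, 76.4 in WTEE 16 and 127 in KDEE 9, which were 3 of the 5 highest for globin. With the choroid plexus level as a covariate the averaged log2 fold change of Hbb-bs was 1.39, and with the structural RNA share as a covariate 1.501. Hippocampal neuron markers had a median log2 fold change of -0.02.

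These relations were tested across the 21 libraries between Hbb-bs and 11 other measures, as deviations from the group means with 100000 permutations within groups (two-sided). A list entered as the mean log2 CPM of its tested genes. The strongest was with the erythroid-restricted list (Pearson's r 0.515, permutation p 0.0290, adjusted 0.220; Spearman's rho 0.474, permutation p 0.0441, adjusted 0.292), and it was 0.502 without the 2 libraries farthest from the median of that list and 0.284 with all 24 libraries. Of its 7 tested genes Slc4a1 had an r of 0.806 with Hbb-bs, and the others ran from -0.52 to 0.30, with a median of 0.07 over the 7. The endothelial list gave r 0.444 (rho 0.342, permutation p 0.0601 and 0.159, adjusted 0.220 and 0.349), the mural cell list r 0.472 (rho 0.449, permutation p 0.0546 and 0.0797, adjusted 0.220 and 0.292) and the meningeal list r 0.484 (rho 0.399, permutation p 0.117 and 0.148, adjusted 0.285 and 0.349). Without the 2 farthest libraries, KDEE 12 and KDEE 20 for the first pair and KDEE 12 and WTEE 10 for the third, r fell to 0.3004, 0.341 and 0.338. The platelet list gave r 0.412 (rho 0.491, permutation p 0.129 and 0.0565, adjusted 0.285 and 0.292), and 0.264 without KDEE 12 and WTEE 10. The neutrophil (r -0.218, rho -0.101), B and plasma cell (-0.118, -0.209), choroid plexus (0.161, 0.195) and hippocampal neuron lists (-0.181, -0.0351), the structural RNA share (-0.129, -0.0675) and the library size (-0.240, -0.260) had permutation p of 0.316 or more on either measure and adjusted p of 0.579 or more. Without their 2 farthest libraries their r was 0.0447, -0.185, 0.0750, -0.0127, -0.0510 and -0.185, in that order. None of the 11 passed an adjusted p of 0.05, which does not show that any of them is unrelated to Hbb-bs. With group means kept in, the endothelial (r 0.603) and mural cell lists (r 0.611) passed, at an adjusted permutation p of 0.0175. That setting permutes over all libraries and keeps the housing difference by which the genes were chosen, so nothing is read from it. Among libraries 1 to 17, r was 0.475 for the erythroid-restricted, 0.667 for the platelet, 0.669 for the meningeal and 0.583 for the endothelial list, with adjusted permutation p of 0.413 or more, and libraries 18 to 24 held at most 2 kept libraries a group and gave no value. The part of vessel, choroid plexus, meningeal or white blood cell content in the level of the 5 genes was not tested.

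**Figure D5:**
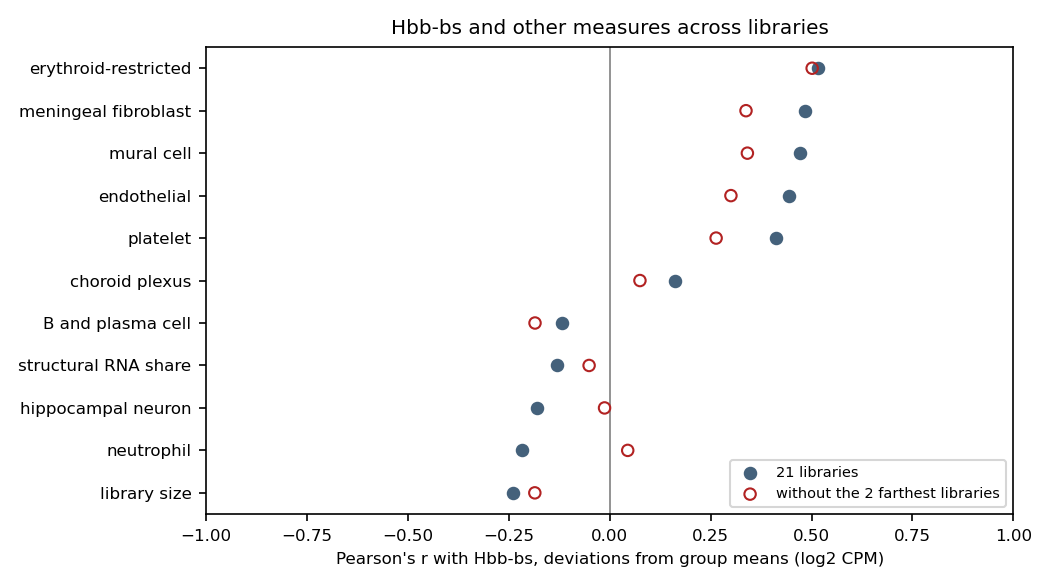
Pearson's r between Hbb-bs and each of 11 measures over the 21 libraries, as deviations from group means on the log2 scale (filled), and again without the 2 libraries farthest from the median of the other measure (open). The 5 highest lie between 0.412 and 0.515 and all but the first fall below 0.35 without those libraries.

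The libraries had 27410239 to 71907130 gene counts, with a structural RNA share (3 abundant noncoding RNA genes) of 0.0212% to 1.68%. The left-out libraries had 15800187 to 39585901 gene counts and a share of 4.37% to 17.6%. MSK1 KD carries a point mutation, so the count of the MSK1 gene Rps6ka5 (13.8 to 25.2 CPM) does not check the genotype.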

How the data were processed

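The authors checked reads with FastQC 0.11.3, trimmed them with Skewer, mapped them to GRCm38 by STAR 2.5 and counted uniquely mapped read pairs per gene with HTSeq 0.6.1p1, without regard to strand. The deposited values are raw counts per gene symbol, not normalized, in 24 libraries of 1 mouse each, and multi-mapped reads and lane or strand information cannot be recovered from them. Groups follow the labels. The 5 genes and the 19 lists of genes were chosen with earlier results of these data known. Tests used the quasi-likelihood model of edgeR 4.0.16 (R 4.3.3) with TMM scaling and its standard low-count filter (minimum count 10), with 4 group means in 1 model over the 21 libraries the study kept, and adjusted over all 20187 genes tested by the Benjamini-Hochberg method. DESeq2 1.42.0 was an alternative and is the test the study used. Rows that name no gene stayed out of library sizes. Log2 CPM values used a prior count of 2. CPM of the 3 left-out libraries come from scaling factors over all 24 libraries, which differ from those over 21 by 0.03 to 0.05 on the log2 scale in the kept libraries. Correlations were tested with 100000 permutations within groups (NumPy 2.4.6). Named genes are the 5, genes called or, in lists without calls, the 3 highest in mean level and the 2 with the largest absolute fold change, and the 10 most like Hbb-bs and Alas2. Hbb-y, Hba-x, Hbb-bh1, Gata1, Gfi1b, Nfe2, Klf1, Tal1, Ly6g, Hmox1 and Bpgm fall outside this rule and were chosen after their values were seen. On simulated counts for the WT contrast, 188 of 200 genes changed by 1 on the log2 scale were recovered among 194 calls over 19938 genes, and 0 calls were made in the contrast left unchanged. The changed genes were drawn at random from well-counted genes. Their recovery does not describe the 5 genes, whose standard errors in the WT contrast were 0.439 to 0.518. No 2 libraries held identical counts. Nothing in the labels says which libraries were processed together, although the paper states that libraries were multiplexed on sequencing lanes. Housing was assigned by cage and the labels do not name the cage. Mice of a group may therefore have shared a cage, and cage and housing cannot be told apart. The p values treat mice as independent and measure the spread between these mice. Gene positions are those of GENCODE M21 and promoter windows those of RefSeq (GRCm38.p6), in which all 5 genes were found. Alternatives were other scalings, filters, tests, covariates and sets of libraries, including each library left out.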

Additional observations from a re-analysis of the deposited data

Results flagged for a closer look

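In libraries that the study left out, 4 values lay above those of every kept library of their group. KDSH 6 had 27.1 CPM of Hba-a1 (the highest kept KDSH library had 24.6), 12.7 CPM of Hba-a2 (10.04) and 34.2 CPM of Hbb-bs (33.1). WTSH 7 had 4.50 CPM of Alas2, where the highest kept WTSH library had 2.87, while its Hbb-bs level of 26.3 CPM lay within the kept range. In the same library Slc4a1 was at 2.51 CPM (44 counts), against at most 0.595 CPM in all 21 kept libraries, and 13 of the 14 erythroid genes under the filter had a count, with a sum of 2.90 CPM against at most 1.08. Alas2 per 1000 globin counts was 69.2 in WTSH 7 and 69.8 in WTSH 4, against 22.8 to 44.3 in the kept libraries. Structural RNA took 17.6% and 17.3% of gene counts in WTSH 7 and WTSH 4 and 4.37% in KDSH 6, and its part in these values was not tested. The left-out WTSH 4 had the lowest Hbb-bs level of all, 13.4 CPM. In groups of 4 to 10 samples, no library of the 5 genes or of their ratios stood apart by the test of the gap to its neighbour, in 28 tests of which chance gives about 1 in 20.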

How the results depend on the processing

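In 475 refits of the 15 enrichment values of the 5 genes, all stayed above 0, from 0.72 to 2.77 on the log2 scale. Among libraries 18 to 24, with WTEE 21 the only WTEE library, the WT values moved to 2.72 (Hba-a1), 2.75 (Hba-a2), 2.49 (Hbb-bs), 2.77 (Hbb-bt) and 2.37 (Alas2), the contrasts of enrichment in WT mice, averaged enrichment and genotype in enriched housing called 7, 5 and 5 genes, and the genotype values in enriched housing of -2.20 (Hba-a1), -2.07 (Hbb-bs) and -2.18 (Hbb-bt) passed the threshold. Among libraries 1 to 17, averaged enrichment called 71 genes, the standard-housing genotype value of Hbb-bt turned to 0.11, the enriched-housing genotype values to 0.32, 0.22, 0.16, 0.22 and 0.30, and the interactions to 0.48, 0.45, 0.21, 0.11 and 0.41 (Hba-a1, Hba-a2, Hbb-bs, Hbb-bt and Alas2), and, as an alternative chosen after seeing the data, r with the B and plasma cell list to 0.139. DESeq2's Wald test called 2 genes for enrichment in WT, 14 in MSK1 KD and 41 averaged, 118 for genotype in enriched housing and 20 for the interaction. With all 24 libraries there were 1 and 15 calls for enrichment in WT mice and averaged, the Alas2 interaction was 0.0093 and r with library size 0.0642. The structural RNA share as covariate left 0 averaged calls, and a fit of only the groups compared gave 1 call in MSK1 KD mice. With group means kept in, r was 0.603 for the endothelial and 0.611 for the mural cell list (both past the threshold, adjusted permutation p 0.0175), 0.0630 for neutrophil, 0.235 for B and plasma cell, 0.131 for structural RNA and 0.00315 for library size. These values hold the housing difference by which the genes were chosen. The causes were not tested.

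Leaving out 1 library moved averaged calls between 0 (without WTSH 5 or 19) and 6 (without WTEE 21), with 2 without KDSH 18 or KDEE 20, and calls in WT mice between 0 and 1 (without WTEE 13). Enriched-housing genotype values ran from -0.54 to 0.0363 (Hba-a1), -0.61 to 0.00084 (Hbb-bt) and -0.50 to 0.085 (Alas2), above 0 only without WTEE 21. Interactions ran from -0.28 to 0.29 (Hba-a1), -0.35 to 0.19 (Hba-a2), -0.32 to 0.22 (Hbb-bs), -0.39 to 0.22 (Hbb-bt) and -0.31 to 0.28 (Alas2), highest without WTEE 21, and above 0 for at least 1 gene also without KDSH 1 or 8, KDEE 15, 20 or 22, WTSH 19 or WTEE 10 or 16. Values of r ran from -0.260 to 0.0562 (neuron, above 0 without WTEE 10), -0.402 to 0.0907 (B and plasma cell, above 0 without WTEE 16 or 21) and -0.421 to 0.0116 (neutrophil, above 0 without WTEE 21). No paired analysis was possible because no library number occurs in more than 1 group. The 14 erythroid genes under the filter could not be tested at this depth.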
